A study of Homo sapiens with 3 samples.

Results

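Chemokines and colony-stimulating factors are secreted proteins that recruit and sustain leukocytes, and 10 of their genes were examined for BRG1 peaks among 19970 protein-coding genes of chromosomes 1 to 22 and X. The genes were the CC chemokines CCL2 and CCL7, the CXC chemokines CXCL1, CXCL2, CXCL3, CXCL8 and CXCL12, and the colony-stimulating factors CSF1, CSF2 and CSF3. They were taken by name. A peak was given to a gene when its midpoint lay in the gene body, or within 100 kb with that gene as the nearest protein-coding one. The territory this rule gives a gene is called its domain. Of the deposited peaks on these chromosomes, 4 of 6293 shared peaks, 9 of 17323 peaks of replicate 1 and 6 of 10082 peaks of replicate 2 fell to the 10 genes.

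The study profiled BRG1 by chromatin immunoprecipitation and sequencing in wild-type 12Z cells, a human epithelial line derived from endometriosis. There were 2 libraries made with an anti-BRG1 antibody (replicates 1 and 2) and 1 input library, which is not analysed here. All libraries came from this 1 line without any change to BRG1, so there is no contrast between conditions, and the labels do not say whether the replicates were separate cultures. Shared peaks are those of the authors' series-wide overlap list, and peak positions, folds and q-values are the authors' own (build GRCh38.p12). Peaks were modest in size: the median fold enrichment was 3.33 among shared peaks, 3.53 in replicate 1 and 3.71 in replicate 2, and the depth behind these values is unknown. A peak near a gene is no measure of its expression. Of the marker genes listed for cell types, 4 of 8 epithelial (KRT7, KRT8, KRT18 and CLDN4) and 6 of 8 mesenchymal genes were assigned a shared peak. The mesenchymal ones were FN1, ZEB2, THY1, PDGFRB, COL1A2 and DCN. So were 1 of 5 endothelial (VWF) and 0 of 8 leukocyte genes, against 9.67% of all genes. The median domain was 42.5 kb for epithelial, 166 kb for mesenchymal, 169 kb for endothelial and 44.5 kb for leukocyte genes.

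BRG1, encoded by SMARCA4, is an ATPase that powers SWI/SNF complexes, which slide or evict nucleosomes and are often found at enhancers. CCL2 and CCL7 attract monocytes, CXCL1, CXCL2, CXCL3 and CXCL8 attract neutrophils, and CXCL12 guides cells that carry the receptor CXCR4. CSF1, CSF2 and CSF3 drive the growth and survival of macrophages, granulocyte-macrophage precursors and neutrophils. Many of these genes are silent at rest and are switched on by tumour necrosis factor or interleukin signals through NF-kB, and several have been studied in endometriosis for the macrophages and neutrophils that enter lesions.

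The starts of the CXC genes that attract neutrophils are shown first, because they carry the same NF-kB element. No BRG1 peak reached any of them, which is usual. Shared peaks touched 0.500% of the promoter windows of protein-coding genes, replicate 1 peaks 1.05% and replicate 2 peaks 0.411%. The 250 bases before each start are given 5′ to 3′ on the strand of the gene, from RefSeq (build GRCh38.p14), with the NF-kB motif GGANTTTCC in capitals. They are chr4:73740319-73740568 (plus strand) for CXCL8, chr4:73869143-73869392 (plus strand) for CXCL1, chr4:74038690-74038939 (minus strand) for CXCL3 and chr4:74099196-74099445 (minus strand) for CXCL2.
CXCL8: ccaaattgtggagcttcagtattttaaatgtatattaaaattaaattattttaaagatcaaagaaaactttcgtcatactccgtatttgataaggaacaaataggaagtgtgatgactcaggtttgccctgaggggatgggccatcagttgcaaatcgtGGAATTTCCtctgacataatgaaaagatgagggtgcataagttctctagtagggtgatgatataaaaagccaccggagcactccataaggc
CXCL1: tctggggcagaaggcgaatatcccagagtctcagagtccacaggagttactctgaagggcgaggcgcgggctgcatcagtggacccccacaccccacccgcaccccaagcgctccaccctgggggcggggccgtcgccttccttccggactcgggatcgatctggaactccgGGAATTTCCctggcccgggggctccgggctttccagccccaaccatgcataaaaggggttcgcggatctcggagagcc
CXCL3: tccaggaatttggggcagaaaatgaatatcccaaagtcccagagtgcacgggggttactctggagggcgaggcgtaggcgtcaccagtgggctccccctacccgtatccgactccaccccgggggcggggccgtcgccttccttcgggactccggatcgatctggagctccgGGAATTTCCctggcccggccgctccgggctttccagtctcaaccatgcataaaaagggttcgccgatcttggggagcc
CXCL2: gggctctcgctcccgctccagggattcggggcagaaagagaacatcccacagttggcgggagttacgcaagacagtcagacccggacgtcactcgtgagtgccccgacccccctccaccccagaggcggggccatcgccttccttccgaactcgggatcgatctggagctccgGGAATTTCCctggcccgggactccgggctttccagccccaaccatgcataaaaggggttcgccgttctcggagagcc
Each matched as GGAATTTCC. The match began 91 bases before the start in CXCL8, 78 in CXCL1 and in CXCL3, and 77 in CXCL2. The motif, read on both strands, stood in 4 of the 7 promoters found for the 10 genes. It stood in 1.41% of the 15812 promoters of protein-coding genes in the same table. Genes and motifs were chosen with earlier results of these data known, and no test was run on this count. The promoters of CXCL1, CXCL2 and CXCL3 are 70.4 to 81.4% identical to each other, so their matches are not separate observations. That of CXCL8 is 42.0 to 45.4% identical to them. CXCL8 also held the AP-1 motif TGACTCA, which did not overlap the NF-kB match and stood in 3.17% of all promoters.

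The promoter of CSF2 is shown for its CK-1 element, a conserved sequence of cytokine genes of this type. It lies at chr5:132073539-132073788 (plus strand) in the same build, with GAGATTCCA in capitals.
CSF2: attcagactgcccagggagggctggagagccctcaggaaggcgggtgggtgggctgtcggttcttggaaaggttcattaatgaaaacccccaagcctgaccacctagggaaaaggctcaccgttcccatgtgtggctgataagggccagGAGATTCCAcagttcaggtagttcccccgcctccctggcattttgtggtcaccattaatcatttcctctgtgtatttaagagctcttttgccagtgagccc
This motif stood in 0.152% of all promoters, and among the 7 in that of CSF2 alone. CSF1 and CSF3 are not among the 7 promoters. The GC box GGGCGG stood in those of CXCL1, CXCL3 and CXCL12 (56.0% of all promoters), the C/EBP motif TTGCNNAA in that of CXCL2 (7.24%) and the TATA box TATAAA in those of CCL7 and CXCL8 (9.25%). The TEAD motif GGAATG stood in none of the 7 and in 10.1% of all. The C/EBP match of CXCL2 overlapped no other. A match is a stretch of letters and not evidence of binding.

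The promoters of CXCL1 and CXCL3 were 81.4% identical over an alignment of 258 columns, those of CXCL2 and CXCL3 73.3% identical and those of CXCL1 and CXCL2 70.4% identical. How the authors treated reads that map to more than 1 place is not stated. Whether such reads affected peaks at these promoters was not tested. None of the 7 promoter windows, which reach from 250 bases before to 50 after the start, was touched by a peak of any list. The 7 do not include CCL2, CSF1 and CSF3, and CCL2 and CSF1 are the genes with a shared peak at a gene end, so this absence says nothing of them. Over all such windows of protein-coding genes, 0.500% were touched by a shared peak, 1.05% by a peak of replicate 1 and 0.411% by a peak of replicate 2.

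CCL2, CXCL8, CSF1 and CSF2 each had 1 shared BRG1 peak in their domain. This is 4 of 10 genes (40%), against 9.67% of all protein-coding genes. Peaks of replicate 1 were found for 6 of 10 genes, against 20.2% of all genes, and peaks of replicate 2 for 5 of 10, against 11.5%. At gene ends, taken as 3 kb either side of both ends of the gene body, shared peaks were found for 2 of 10 genes, CCL2 and CSF1, against 2.24% of all genes. Replicate 1 gave the same 2 genes (6.86% of all genes) and replicate 2 gave 3, with CXCL2 added (3.0% of all genes). Where at least 50% of both replicate peaks had to overlap, CXCL8 and CSF2 were left, against 5.25% of all genes. No test was run on these counts, because the genes were named with earlier results of these data in view.

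By role, shared peaks stood at 1 of the 2 CC chemokines, 1 of the 5 CXC chemokines and 2 of the 3 colony-stimulating factors. CXCL2 had a peak in each replicate and none in the overlap list, a state that 0.851% of all genes shared. CXCL12 had a peak in replicate 1 alone, as 9.67% of all genes did. CCL7, CXCL1, CXCL3 and CSF3 had no peak in any list, as was true of 78.8% of all genes. The domains were of ordinary length, with a median of 61 kb for the 10 genes and 56 kb over all genes. Shared peaks numbered 5.35 per Mb of domain for the 10 genes and 1.55 over all genes, and the corresponding densities were 12.0 and 4.63 in replicate 1 and 8.03 and 2.10 in replicate 2.

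**Figure D1:**
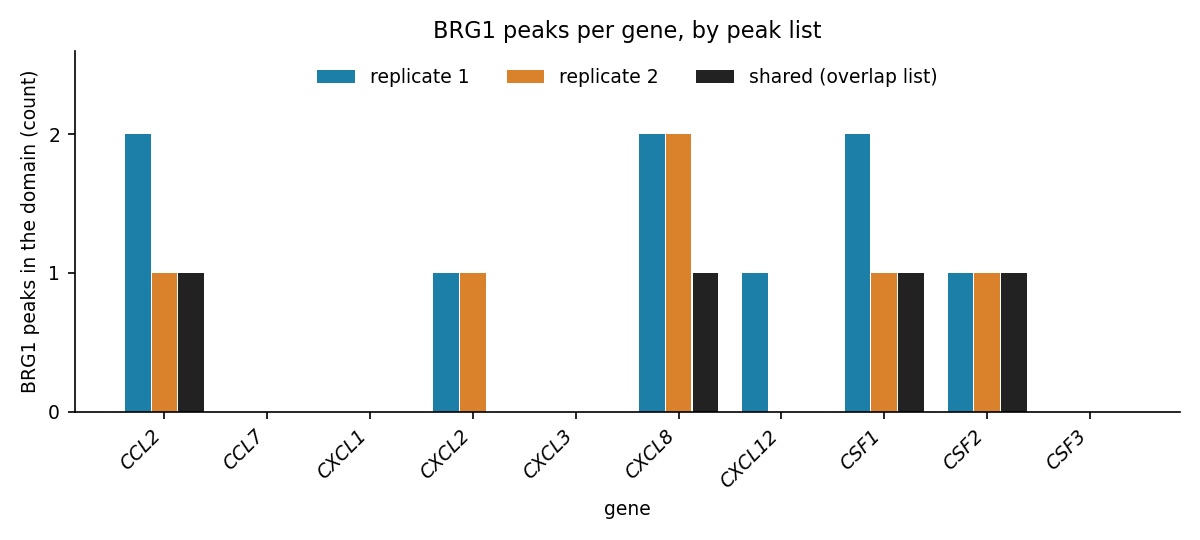
Number of BRG1 peaks (y axis, count) in the domain of each of the 10 genes (x axis), with a bar each for replicate 1, replicate 2 and the shared peaks. CCL2, CXCL8, CSF1 and CSF2 have 1 shared peak each, CXCL2 has 1 peak in each replicate without a shared one, and 4 genes have none.

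Among peaks within 100 kb of the 10 genes, those of CCL2 had the highest −log10 q in each of the 3 lists. Its shared peak covered 2637 bp at 34252283 to 34254919 on chromosome 17 and ended 366 bp short of the gene body, on the side of lower coordinates. CCL2 is transcribed toward higher coordinates, so this is the upstream side, where a distal enhancer with NF-kB sites is known. The authors' fold for the shared peak was 3.89, at percentile 88.9 of the overlap list, with a −log10 q of 4.52. Within it lay 2 peaks of replicate 1 and 1 of replicate 2.

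The larger replicate 1 peak near CCL2 spanned 34252392 to 34253588, with its midpoint 2.30 kb from the gene body, a fold of 4.68 (percentile 97.8) and a −log10 q of 4.07. Replicate 2 placed its only peak inside that interval, at 34252440 to 34252948, 2.59 kb from the gene body, with a fold of 4.37 (percentile 91.4) and a −log10 q of 2.95. The 509 bp of the replicate 2 peak lay wholly within the replicate 1 peak and filled 42.5% of it. A second replicate 1 peak, at 34254465 to 34254898 and nearer to the gene, with a fold of 3.85, had no partner in replicate 2. So both libraries marked the distal part of the upstream region, and replicate 1 alone marked the part within 1 kb of the gene.

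CCL7 lies 13.0 kb beyond CCL2 and had no peak of its own in any list, within a domain of only 15 kb. Its nearest shared peak was that of CCL2, 16.6 kb away, which the rule gave to CCL2. The cluster continues with CCL11, CCL8, CCL13 and CCL1, which attract eosinophils, monocytes and T cells. From 100 kb below CCL2 to 100 kb above CCL7, the peaks just described were the only ones of any list.

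CSF1 was the only one of the 10 genes with a shared peak inside its body. It spanned 109910516 to 109911517 on chromosome 1, starting 10 bp and ending 1011 bp inside the lower end of the body, which is the transcription start side of this gene. Its fold was 3.35, at percentile 52.0, with a −log10 q of 3.04. The replicate 1 peak covered 109910509 to 109910815 (fold 3.86, −log10 q 2.56) and the replicate 2 peak 109910722 to 109911511 (fold 3.85, −log10 q 2.06). These overlapped by 94 bp, or 30.6% of the replicate 1 peak and 11.9% of the replicate 2 peak, so the libraries placed enrichment in adjoining rather than equal stretches. Another replicate 1 peak, 33.0 kb below the gene with a fold of 3.44, lay inside the long non-coding RNA gene LINC01768 and had no partner in replicate 2.

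CSF2 had the narrowest shared peak, 255 bp at 132094628 to 132094882 on chromosome 5. It lay 18.6 kb from the gene body, on the downstream side, and CSF2 remained the nearest gene when non-coding genes were counted too. IL3, a related cytokine gene, lies 10.6 kb away on the other side. The fold was 3.55 (percentile 70.0) with a −log10 q of 4.38. Replicate 1 had a peak at 132094640 to 132094877 (fold 3.81, −log10 q 2.71), and replicate 2 one at 132094661 to 132094816 (fold 3.62, −log10 q 1.99). The replicate 2 peak lay entirely inside that of replicate 1 and filled 65.5% of it.

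CSF3 had no peak in any list, and its nearest shared peak, 86.1 kb away, was assigned to LRRC3C. Its domain measured only 11 kb, since MED24 lies 1.29 kb away and PSMD3 17.5 kb away. The absence therefore covers a short stretch of sequence.

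CXCL8 had its shared peak 35.5 kb upstream of the gene body, at 73704451 to 73705727 on chromosome 4. The fold was 3.31 (percentile 47.7), with a −log10 q of 2.64, the lowest of the 4 shared peaks on both counts. Replicate 1 had a peak at 73704541 to 73705185 (fold 3.66, −log10 q 1.92) and replicate 2 at 73704377 to 73705045 (fold 3.80, −log10 q 1.84). These overlapped by 505 bp, or 78.3% of the replicate 1 peak and 75.5% of the replicate 2 peak, the only one of the 4 overlapping pairs in which both shares were below 100% and above 50%. A further replicate 1 peak stood 32.3 kb upstream and a further replicate 2 peak 14.2 kb upstream, neither found in the other library. The shared peak lies inside the long non-coding RNA gene INKILN. When non-coding genes are counted, INKILN and not CXCL8 is the nearest gene to every peak given to CXCL8.

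CXCL2 had peaks that the libraries put in different places. Replicate 1 had a narrow peak of 157 bp at 74104210 to 74104366, 5.09 kb upstream of the gene, with a fold of 4.64 (percentile 97.5) and a −log10 q of 3.97. Replicate 2 had one at 74099539 to 74099916, which began 94 bp beyond the promoter window, with a fold of 3.74 (percentile 54.7) and a −log10 q of 1.80. A gap of 4293 bp separated them. The nearest shared peak was 11.0 kb from CXCL2, at 74109000 to 74111335 (fold 3.67, −log10 q 3.93), and went to the neighbouring gene MTHFD2L, which encodes a mitochondrial folate enzyme and lies nearer to it.

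Between these flanking peaks the CXC cluster was empty. No peak of any list touched the stretch from CXCL8 to CXCL2, which also holds CXCL6, PF4V1, CXCL1, PF4, PPBP, CXCL5 and CXCL3. The distance without a peak was 403 kb in the overlap list, 396 kb in replicate 1 and 373 kb in replicate 2. Stretches this long are common in such sparse lists: 21.1% of the intervals between neighbouring shared peaks were as long, 10.8% in replicate 1 and 15.1% in replicate 2. For CXCL1 the nearest shared peak was the one upstream of CXCL8, 164 kb away, and for CXCL3 the one given to MTHFD2L, 71.5 kb away.

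**Figure D2:**
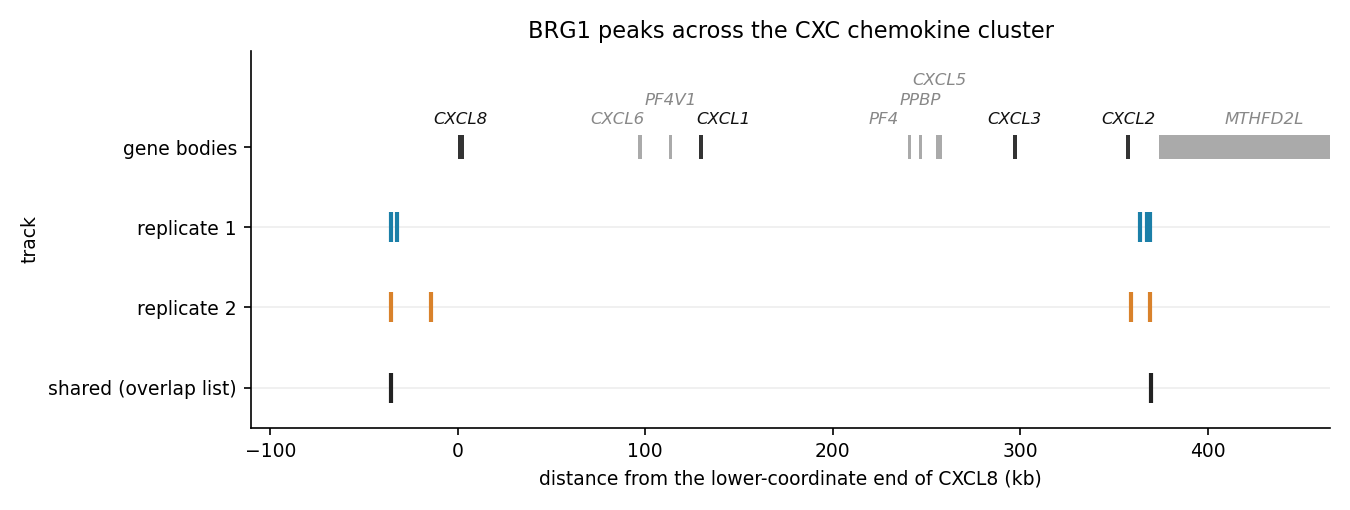
BRG1 peaks of each list along the CXC chemokine cluster (x axis, distance in kb from the lower-coordinate end of CXCL8), with gene bodies in the top row, the genes examined here in black and their neighbours in grey. Ticks are peak midpoints. They stand outside CXCL8 and outside CXCL2, with none in between.

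CXCL12 showed its strongest signal outside the range of 100 kb. Inside it, replicate 1 had a peak at 44301023 to 44301595 on chromosome 10, 68.9 kb downstream, with a fold of 4.42 (percentile 95.1) and a −log10 q of 3.49. It overlapped no replicate 2 peak, and it lay inside the non-coding gene LOC124902544. Beyond the limit, a shared peak at 44195296 to 44195708 lay 175 kb downstream with CXCL12 still as the nearest protein-coding gene. Its fold was 4.82 (percentile 99.3) and its −log10 q was 8.46, a value that 5.18% of shared peaks reached. Replicate 1 gave it a fold of 5.96 and a −log10 q of 7.52, and replicate 2 a fold of 5.14 and a −log10 q of 4.78. This peak surpassed every peak within 100 kb of the 10 genes in fold and q within its own list.

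The order of the 10 genes by distance to the nearest shared peak was CSF1 (0 kb), CCL2 (1.68 kb), CXCL2 (11.0 kb), CCL7 (16.6 kb), CSF2 (18.6 kb), CXCL8 (35.5 kb), CXCL3 (71.5 kb), CSF3 (86.1 kb), CXCL1 (164 kb) and CXCL12 (175 kb). The median was 27.0 kb for the 10 genes, against 354 kb over all protein-coding genes. The 10 distances are not separate observations. CCL2 and CCL7 have the same nearest shared peak, as do CXCL2 and CXCL3, and CXCL8 and CXCL1. CXCL12, the farthest of the 10, was still nearer to a shared peak than most genes, since 32.7% of all genes were nearer.

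Of the replicate 1 peaks of the 10 genes, 4 of 9 (44.4%; 95% Wilson interval 18.9 to 73.3%) were overlapped by a replicate 2 peak, against 36.6% of all replicate 1 peaks. In replicate 2 it was 4 of 6 (66.7%; interval 30.0 to 90.3%), against 63.9% of all. Among peaks with a coding gene within 100 kb, as all peaks of the 10 genes are, the shares were 33.0% in replicate 1 and 74.1% in replicate 2. The intervals treat peaks as independent, and with so few peaks a difference from the lists was not detectable. The median fold percentile was 76.6 over the 9 peaks of replicate 1, with a range of 38.9 to 97.8, and 62.4 over the 6 peaks of replicate 2, with a range of 42.6 to 91.4. Ranked by −log10 p, the replicate 2 median was 36.3, below the middle of the list. By the same measure the shared peaks stood at percentile 69.8 (CCL2), 68.2 (CSF2), 25.8 (CSF1) and 12.8 (CXCL8) of the overlap list. The −log10 q of the CSF1 and CXCL8 peaks lay below that list's median of 3.70, and those of CCL2 and CSF2 above it.

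The −log10 q of the 10 genes' peaks ran from 1.70 to 4.07 in replicate 1 and from 1.80 to 2.95 in replicate 2. At none of the 4 shared peaks did both replicate peaks reach a value of 3, and 1.52% of all genes had such a peak. CCL2 came closest, with 4.07 in replicate 1 and 2.95 in replicate 2. The peaks of the 10 genes were wider than usual in replicate 1, with a median of 475 bp against 355 bp over the list, and in replicate 2, with 444 bp against 322 bp.

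**Figure D3:**
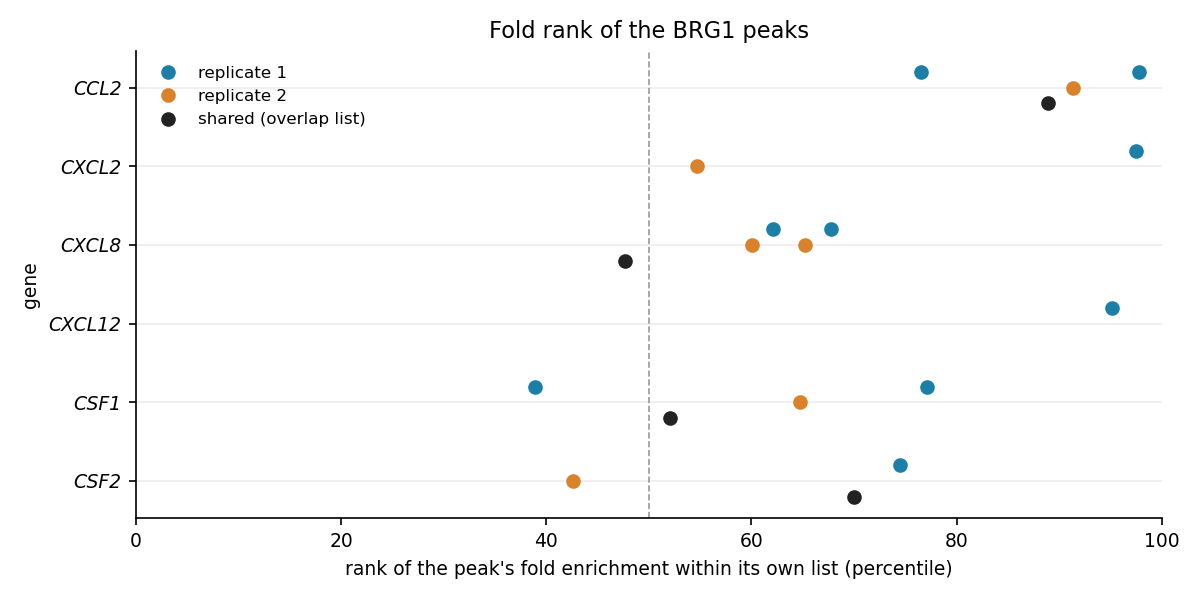
Rank of the fold enrichment of each peak within its own list (x axis, percentile) for the 6 genes with a peak (y axis), coloured by list, with a dashed line at the middle of each list. CCL2 peaks lie between 76.6 and 97.8 in all lists, while those of CSF2 lie between 42.6 and 74.5.

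Of 39 further chemokine genes, 1 had a shared peak, against 9.67% of all genes, and 3 had a peak in replicate 1, against 20.2%. Their domains were short, with a median of 29 kb against 56 kb over all genes. The gene with a shared peak was CXCL13, a B cell attractant, with the peak inside the gene at 77579137 to 77580107 on chromosome 4 (fold 3.68, −log10 q 3.68). CCL20, which attracts cells that carry CCR6, had a replicate 1 peak alone, 1.01 kb from the gene with a fold of 3.75, and CCL24, an eosinophil attractant, had one 19.6 kb away with a fold of 3.35. None of the 24 further CC chemokine genes had a shared peak.

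Among 27 receptor genes, with a median domain of 60 kb, 1 had shared peaks, against 9.67% of all genes, and 5 had a peak in replicate 1, a share near the 20.2% of all genes. The gene with shared peaks was ACKR3, the atypical receptor that binds and removes CXCL12. It had 3 shared peaks, 60.5, 79.4 and 82.4 kb from the gene on chromosome 2, with folds of 3.58, 3.36 and 3.49, and 6 peaks in replicate 1 and 3 in replicate 2. CXCR4, the signalling receptor of CXCL12, and CXCR1 and CXCR2, the receptors of CXCL8, had no peak in any list. This was true of 78.8% of all genes. CCR2, the receptor of CCL2 and CCL7, had a replicate 1 peak alone (19.1 kb away, fold 3.61). Of the receptors of the colony-stimulating factors, CSF1R had a replicate 1 peak alone inside the gene (fold 3.23) and CSF2RB one 8.51 kb away (fold 4.10), while CSF2RA and CSF3R had none.

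Of 27 genes of the NF-kB pathway, 4 had a shared peak (9.67% of all genes did). NFKB1, which encodes a subunit of the factor, had one 71.6 kb away with a fold of 4.09 and a −log10 q of 4.90. The others were regulators. BCL3, a nuclear cofactor, had 2 shared peaks, at 5.83 kb and inside the gene. TNFAIP3, a ubiquitin-editing inhibitor, had 1 at 34.9 kb with a fold of 3.35, and MAP3K14, the kinase of the non-canonical branch, had 2 inside the gene. RELA (domain 36 kb) and TNF (domain 4 kb) had no peak in any list, as was true of 78.8% of all genes. Replicate 1 gave peaks to 12 of the 27 genes, against 20.2% of all genes, and replicate 2 to 4, against 11.5%. The median domain of these genes was 43 kb.

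CXCL8 had the most peaks of the 10 genes when the 3 lists were summed, with 1 shared, 2 replicate 1 and 2 replicate 2 peaks. It tied with CCL2, CSF1 and CSF2 on shared peaks and with CCL2 and CSF1 on replicate 1 peaks. Over all genes, 42 had these same counts over the 2 libraries. Those closest to it in domain length (109 kb) were LOC124905050 (105 kb), DAGLA (116 kb), which encodes a lipase that makes an endocannabinoid, and CHAT (100 kb), the acetylcholine synthesis gene.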

How the data were processed

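BRG1 ChIP-seq peaks of 12Z cells were taken as deposited. Per the labels' protocols, chromatin was fixed with formaldehyde and digested with micrococcal nuclease before a short sonication. The submitters' processing notes name MACS2, bedtools, Picard, SAMtools, Bowtie2, Trim Galore and cutadapt, with build GRCh38.p12. The sources used here give neither their settings nor whether the overlap list was called on pooled reads. The authors' columns hold a fold enrichment (a ratio) and the −log10 of the p-value and q-value of each peak. They were used only to describe and rank peaks within their own list.

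Peaks on chromosomes 1 to 22 and X were assigned in Python 3.11.15 (numpy 2.4.6, pandas 2.3.3, scipy 1.17.1, matplotlib 3.10.9), with positions counted from 1. A RefSeq gene table of GRCh38.p14 gave gene names and neighbourhoods. Strand and promoters came from a RefSeq promoter table, which matched 7 of the 10 genes; the strands of CCL2 and CSF1 are background knowledge. Replicate peaks matched when they overlapped by 1 bp or more. Domain lengths were read on a 1 kb grid. Percentiles rank a peak among all peaks of its list. The assignment was tested on simulated data.

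The genes, lists and motifs were chosen with earlier results of these data known. Named are the 10 genes, their neighbours within 250 kb, list genes with a shared peak (at most 12 per list) and 3 genes most like the member with the most peaks. The first such member was set by replicate peaks, since 4 genes tied on shared peaks. INKILN, LINC01768, LOC124902544, LRRC3C and list genes without a shared peak were named after their values were seen.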

Additional observations from a re-analysis of the deposited data

How the results depend on the processing

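All alternatives were those listed at the outset. The 4 genes with a shared peak remained the same 4 within 50 kb (8.93% of all genes) and with any part of the peak counted (9.7%). Within 250 kb CXCL12 joined them (10.4% of all genes). With non-coding genes counted (7.22% of all genes), CXCL8 left, ACKR3 left the receptors (0 with a shared peak) and 2 NF-kB genes remained. Within 50 kb the receptors also fell to 0. Where both replicates had to reach a −log10 q of 3, or of 5, 970 and 242 of 6293 shared peaks were left. Of all genes, 1.52% and 0.125% then had such a peak, and 0.145% and 0.015% had it at a gene end. There were 0 genes of the 10 with a shared peak, 0 shared peaks and 0 at gene ends. Further chemokine, receptor and NF-kB genes also numbered 0. Requiring 50% of both replicate peaks left 2 genes (CXCL8 and CSF2) with 2 peaks, 0 further chemokine and 0 receptor genes, and 2 NF-kB genes (5.25% of all genes). At gene ends 0 of the 10 were left (0.806% of all genes).

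Without replicate 1, the genes with a peak numbered 5, with 6 peaks, against 11.5% of all genes. Genes with a peak at an end numbered 3 (3.0% of all genes). Further chemokine genes numbered 1, receptor genes 1 and NF-kB genes 4. Without replicate 2, the genes with a peak numbered 6, with 9 peaks, against 20.2% of all genes. Genes with a peak at an end numbered 2 (6.86% of all genes). Further chemokine genes numbered 3, receptor genes 5 and NF-kB genes 12. The share of all genes with a peak was thus also higher without replicate 2. The median fold percentile of replicate 2 was 62.4, against 36.3 by −log10 p and 47.8 among peaks with a coding gene within 100 kb; the cause was not tested. No paired analysis was possible because the only group with replicates is the BRG1 libraries. Read depth is unknown, so a missing peak may lie below detection.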
